A study of Mus musculus with 4 samples.

Results

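The genes described here are 35 cell cycle and DNA replication genes, chosen by symbol from a list of known roles. Of the 35, 34 were among the 15586 genes of the expression table, and Aurka was not analysed here. They comprise 13 genes of S phase and its entry, 14 measured genes of G2 and mitosis, 3 D-type cyclins with their kinase partner Cdk4, and Tubb5, Stmn1 and Hmgb2, which dividing cells use heavily but non-dividing cells also express. RNA-seq was made from retinal microglia, the tissue's resident macrophages, which were collected by sorting on EYFP from mice aged 2 months, with 200 cells per library. All mice were adults described as carrying 1 Cx3cr1CreER allele and Tak1fl/fl, floxed alleles of the gene for the kinase TAK1. Cx3cr1CreER is a tamoxifen-dependent Cre recombinase at the Cx3cr1 locus, which monocytes and other macrophages also use. The TAK1_KO mice (2 libraries, here knockout 1 and knockout 2) received intraperitoneal tamoxifen at 75 mg/kg on 5 consecutive days. The CON mice (2 libraries, here control 1 and control 2) received corn oil on 5 days. The genotype label of both knockout libraries reads Tak3fl/fl where the treatment protocol reads Tak1fl/fl. Tamoxifen and deletion cannot be told apart in this design, and the labels do not say whether replicates were different animals, pools or aliquots, so the spread behind every p-value may be technical.

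Cells enter the division cycle when D-type cyclins and CDK4 release E2F transcription factors from the retinoblastoma protein. E2F target genes then supply the helicase, clamp and nucleotides that copy DNA in S phase. Genes of G2 and mitosis are switched on later, largely through promoter elements bound by the DREAM and MuvB complexes and by NF-Y, and their transcripts are degraded or silenced in resting cells. Adult microglia divide rarely, renew themselves locally, and proliferate in retinal injury and degeneration, with CSF1R signalling as the main growth input.

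Values were FPKM, a read density per transcript length and per library size, so levels can be compared between genes. Sequencing depth per library was unknown. FPKM summed to between 812009 and 823229 in the knockouts and between 863652 and 969700 in the controls. A level of 1 FPKM or more was read for 6055 and 5628 genes in knockout 1 and 2, and for 4481 and 3777 genes in control 1 and 2. Of 20 genes used by every cell, 20 and 18 reached 1 FPKM in knockout 1 and 2, and 19 and 15 in control 1 and 2. Among them Polr2a read 8.50 and 9.04 FPKM in the knockouts and 0.01 and 0 FPKM in the controls, and Tbp read 81.2 and 0.32 FPKM in the knockouts and 27.2 and 0.19 FPKM in the controls. In these libraries of 200 cells, silence of a gene cannot be read from a value near 0. The targeted gene, Map3k7 (the gene of TAK1), read 0.02 and 0.08 FPKM in the knockouts and 0.03 and 0 FPKM in the controls, and could not check the labels. All 12 microglia markers reached 1 FPKM in both knockouts and control 2, and 11 did in control 1.

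Most cell cycle genes were near 0 in most libraries, as were most genes of the table (median 0.03 to 0.08 FPKM per library). Of the 14 mitotic members, 5 were high in knockout 2 alone. At least 1 FPKM was read for 15 and 21 of the 34 members in knockout 1 and 2 (44.1% and 61.8%). In control 1 and 2 it was read for 9 and 4 (26.5% and 11.8%). Of all genes, 38.8% and 36.1% reached it in knockout 1 and 2, and 28.8% and 24.2% in control 1 and 2. Of the 14 mitotic members, 3 and 8 reached it in knockout 1 and 2, and 1 and 0 in control 1 and 2. The 14 summed to 54.6 and 803 FPKM in knockout 1 and 2, and to 24.6 and 2.29 FPKM in control 1 and 2. Ccnb2 (314.5 FPKM) and Birc5 (265.5 FPKM) made most of the sum in knockout 2. Of the 13 S phase members, 6 and 8 reached 1 FPKM in knockout 1 and 2, and 3 and 1 in control 1 and 2. The 13 summed to 328 and 602 FPKM in the knockouts and to 509 and 2.46 FPKM in the controls, sums that Pcna dominated. Knockout 2 therefore stood apart from the other 3 libraries in mitotic genes, and knockout 1 did not share its pattern. S phase members at 1 FPKM were also most numerous in knockout 2. Over the whole table, knockout 2 had fewer genes at 1 FPKM than knockout 1, but also the fewest genes at 0. Those at 0 numbered 6035 and 4507 in knockout 1 and 2, and 5833 and 5537 in control 1 and 2. The part of detection in the mitotic values was not tested.

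**Figure D1:**
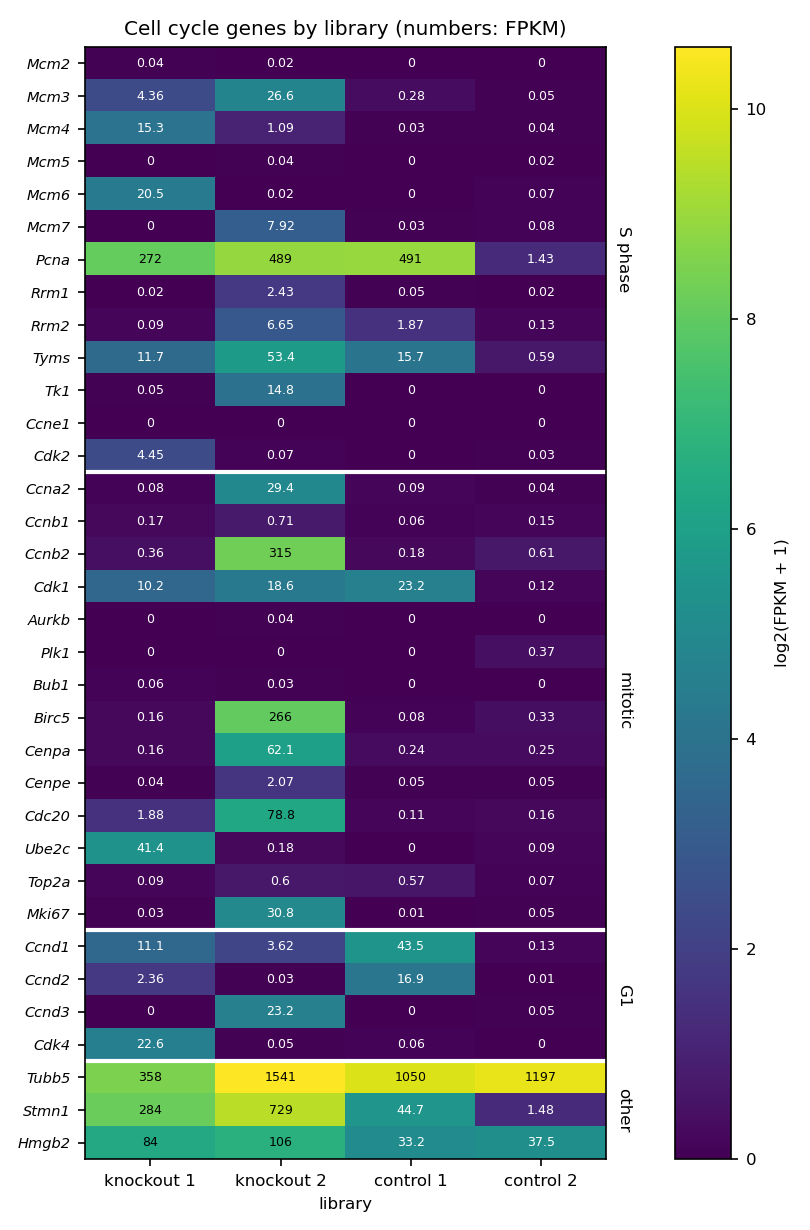
FPKM of the 34 measured cell cycle genes (rows, in 4 classes) in each library (columns); colour gives log2(FPKM + 1) and the printed number gives FPKM. Among mitotic genes the bright cells lie mainly in knockout 2, with Ccnb2 at 315 and Birc5 at 266 FPKM, while Pcna is high in 3 libraries and Tubb5 in all 4.

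The promoters of the 5 mitotic members with a window that read highest in knockout 2, and of Hmgb2, a member read in every library whose groups did not overlap, are shown first because 2 of the elements marked recur in most mitotic members. Each is the RefSeq window of the GRCm38.p6 assembly from 250 bases before to 50 bases after the start site, on the gene's own strand, 5′ to 3′. Capitals mark matches on either strand to 3 elements. The cell cycle homology region (CHR) was searched as TTTGAA and as the variant TTTAAA. The CCAAT box was searched as CCAAT. The E2F site was searched as TTCCCGC, then as TTGGCGC, and then as TTCGCGC.
Ccnb2, chr9:70421505-70421804, minus strand: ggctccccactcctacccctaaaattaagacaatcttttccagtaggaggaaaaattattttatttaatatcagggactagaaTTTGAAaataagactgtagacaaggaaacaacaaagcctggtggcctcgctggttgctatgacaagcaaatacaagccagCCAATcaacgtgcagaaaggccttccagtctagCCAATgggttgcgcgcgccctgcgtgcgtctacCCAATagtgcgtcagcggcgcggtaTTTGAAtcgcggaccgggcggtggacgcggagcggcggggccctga
Birc5, chr11:117848987-117849286, plus strand: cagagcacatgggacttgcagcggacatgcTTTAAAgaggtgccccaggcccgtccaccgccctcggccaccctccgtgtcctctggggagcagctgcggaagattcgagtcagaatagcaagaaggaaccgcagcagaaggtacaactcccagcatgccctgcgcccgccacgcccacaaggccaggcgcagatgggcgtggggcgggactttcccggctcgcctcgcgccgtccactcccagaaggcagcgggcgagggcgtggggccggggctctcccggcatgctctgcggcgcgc
Cenpa, chr5:30666636-30666935, plus strand: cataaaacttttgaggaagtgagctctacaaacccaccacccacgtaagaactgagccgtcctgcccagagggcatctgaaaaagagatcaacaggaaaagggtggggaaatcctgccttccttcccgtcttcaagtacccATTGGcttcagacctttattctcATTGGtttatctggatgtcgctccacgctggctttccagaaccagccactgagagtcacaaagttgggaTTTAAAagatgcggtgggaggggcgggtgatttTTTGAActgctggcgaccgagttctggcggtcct
Cdc20, chr4:118437294-118437593, minus strand: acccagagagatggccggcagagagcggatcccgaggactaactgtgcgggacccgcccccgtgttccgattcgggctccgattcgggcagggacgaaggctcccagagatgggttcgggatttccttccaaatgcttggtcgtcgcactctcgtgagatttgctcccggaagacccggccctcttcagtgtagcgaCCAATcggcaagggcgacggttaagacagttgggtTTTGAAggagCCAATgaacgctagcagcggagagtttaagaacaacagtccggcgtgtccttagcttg
Mki67, chr7:135716330-135716629, minus strand: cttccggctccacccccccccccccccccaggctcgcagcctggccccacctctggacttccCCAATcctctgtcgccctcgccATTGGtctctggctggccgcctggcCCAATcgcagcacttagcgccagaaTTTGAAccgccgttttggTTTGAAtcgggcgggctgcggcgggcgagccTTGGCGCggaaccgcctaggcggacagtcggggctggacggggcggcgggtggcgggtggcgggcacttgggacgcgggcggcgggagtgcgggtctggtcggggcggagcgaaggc
Hmgb2, chr8:57511593-57511892, plus strand: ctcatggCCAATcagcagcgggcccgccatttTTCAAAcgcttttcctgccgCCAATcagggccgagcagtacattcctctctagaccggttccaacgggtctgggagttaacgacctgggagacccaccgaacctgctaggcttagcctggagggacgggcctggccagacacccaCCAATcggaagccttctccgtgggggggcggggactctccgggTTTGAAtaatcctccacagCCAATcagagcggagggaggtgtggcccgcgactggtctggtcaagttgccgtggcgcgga
In Ccnb2 a CHR match began 4 bases after the start site and 3 CCAAT boxes lay upstream of it, beginning 87, 54 and 21 bases before the start. In Cdc20 a CHR match began 18 bases before the start, between CCAAT boxes beginning 53 and 8 bases before it. In Birc5 the single match was TTTAAA, beginning 220 bases before the start.

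Of the 34 members, 28 had a window in the RefSeq table, and 12 of those were mitotic and 12 S phase genes. A CHR match was present in 11 of the 12 mitotic members (91.7%) and in 5 of the 12 S phase members (41.7%), beside 23.1% of the 6353 tested genes with a window and 27.6% of all 32851 windows. A CCAAT box was present in 11 of 12 mitotic and 9 of 12 S phase members, beside 43.3% of tested genes and 37.4% of all windows. Both elements together occurred in 10 of the 12 mitotic members (83.3%), in 3 of the 12 S phase members (25%), and in 10.9% of tested genes. An E2F match was present in 3 of the 12 mitotic and 6 of the 12 S phase members, beside 16.9% of tested genes and 8.07% of all windows. In 2 member windows an E2F match shared bases with a CCAAT box. Bub1 was the 1 mitotic member without a CHR match. Plk1 and Top2a hold both elements and read under 1 FPKM in every library.

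**Figure D2:**
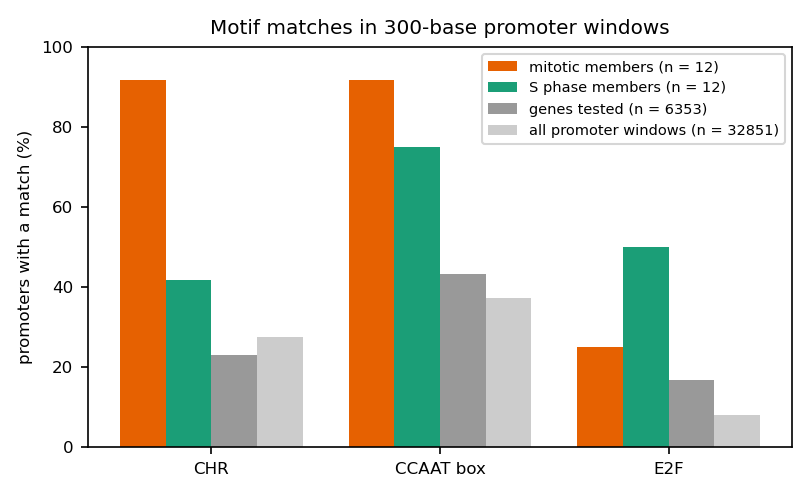
Share of promoter windows (percent) with a CHR, CCAAT box or E2F match on either strand, for mitotic members, S phase members, tested genes and all windows of the RefSeq table. The mitotic bar stands at 91.7% for both the CHR and the CCAAT box, whereas the S phase bar is the tallest for E2F, at 50%.

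The cyclins and kinase of G2 and mitosis did not move together. Ccnb2, which encodes the B-type cyclin B2 (chromosome 9, 70407689 to 70421554), read 0.36 and 314.5 FPKM in knockout 1 and 2, against 0.18 and 0.61 FPKM in control 1 and 2. Ccna2, the cyclin of S phase and G2, read 0.08 and 29.4 FPKM in the knockouts, against 0.09 and 0.04 FPKM in the controls. Each of them was high in knockout 2 and under 1 FPKM in the other 3 libraries, so the groups overlapped. Ccnb1, the other B-type cyclin, stayed under 1 FPKM throughout, at 0.17 and 0.71 FPKM in the knockouts and 0.06 and 0.15 FPKM in the controls. Cdk1, their kinase partner, read 10.2 and 18.6 FPKM in the knockouts, against 23.2 and 0.12 FPKM in the controls. It was highest in control 1, a library in which Ccna2, Ccnb1 and Ccnb2 were all near 0. Named pseudogenes exist for Ccnb2 (Ccnb2-ps) and Ccnb1 (Ccnb1-ps), and how reads shared with them were assigned is not given in the sources used here.

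The mitotic kinases, the checkpoint and the chromosomal passenger complex were split in the same way. Birc5, which encodes survivin, the passenger complex subunit that guides Aurora B to centromeres (chromosome 11, 117849237 to 117855743), read 0.16 and 265.5 FPKM in the knockouts and 0.08 and 0.33 FPKM in the controls. Aurkb, which encodes Aurora B itself, read 0 and 0.04 FPKM in the knockouts and 0 in both controls. Survivin transcripts were therefore high in 1 library whose Aurora B transcripts were near 0. Plk1, a kinase of mitotic entry and spindle assembly, was listed at 0 in both knockouts and at 0 and 0.37 FPKM in the controls. Bub1, a spindle checkpoint kinase, read 0.06 and 0.03 FPKM in the knockouts and 0 in both controls. Neither of these kinases reached 1 FPKM in any library.

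Centromere and anaphase genes were highest in knockout 2, with 1 exception. Cenpa, the histone H3 variant that marks centromeres, read 0.16 and 62.1 FPKM in the knockouts and 0.24 and 0.25 FPKM in the controls. Cenpe, a kinetochore motor, read 0.04 and 2.07 FPKM in the knockouts and 0.05 in both controls. Cdc20, an activator of the anaphase-promoting complex, read 1.88 and 78.8 FPKM in the knockouts and 0.11 and 0.16 FPKM in the controls, so both knockouts lay above both controls. Ube2c, the ubiquitin-conjugating enzyme of the same complex, was the exception: it read 41.4 and 0.18 FPKM in the knockouts and 0 and 0.09 FPKM in the controls, high in knockout 1 alone. Mki67, the gene of the proliferation marker Ki-67, read 0.03 and 30.8 FPKM in the knockouts and 0.01 and 0.05 FPKM in the controls. Top2a, the DNA topoisomerase of chromosome condensation, read 0.09 and 0.60 FPKM in the knockouts and 0.57 and 0.07 FPKM in the controls, with no order by group. Cdc20 overlaps Elovl1, which read 0.04 and 7.10 FPKM in the knockouts and 0.04 and 41.3 FPKM in the controls. Ccna2 overlaps Exosc9, which read 59.1 and 39.7 FPKM in the knockouts and 154 and 82.7 FPKM in the controls. Use of strand in counting is not given in the sources used here, so reads in the stretch that such a pair shares cannot be told apart. Mcm7, Tk1, Cdk2, Ccnd1 and Ccnd3 also overlap another gene of the table, of which the highest value was 26.25 FPKM, for Afmid, the partner of Tk1, in control 2.

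A gene was counted as high in 1 library alone if it read at least 10 FPKM there and under 1 FPKM in the other 3, a limit chosen after the values were seen. In knockout 2 this held for 5 of the 14 mitotic members (35.7%), Ccna2, Ccnb2, Birc5, Cenpa and Mki67, beside 462 of all 15586 genes (2.96%). In knockout 1 it held for 1 mitotic member, Ube2c (7.14%, beside 3.82% of all genes), and in neither control for any (1.68% of all genes in control 1 and 1.26% in control 2). Among 52 further mitotic genes in the table, of 54 listed, the counts were 10 and 2 in knockout 2 and 1, and 1 in each control. Those 10 in knockout 2 were Kif4, Kif22 and Kif23, mitotic kinesins, Prc1, which bundles the central spindle, Nusap1, a spindle protein, Cdca8, the passenger subunit borealin, Cenpf and Cenpk of the kinetochore, Ncapg of condensin, and Ccnf. Cenpk reached 176 FPKM and Kif23 65.2 FPKM there, while the lowest of the 10, Cenpf, read 12.3 FPKM. Cdkn3, a phosphatase that acts on CDK1 and CDK2, read 0.34 and 276 FPKM in the knockouts and 0.11 and 0.34 FPKM in the controls. With Cdkn2c, at 12.69 FPKM in knockout 2, it made 2 of 5 CDK inhibitors high in knockout 2 alone (40%). Among the 13 S phase members, Tk1 was the 1 high in knockout 2 alone (7.69%), and 1 of 46 further replication genes was (2.17%). The difference between the mitotic and S phase classes was not tested. Genes high in a single library are common in these data: 2514 of the 7823 tested genes (32.1%) and 14 of the 24 tested members (58.3%) had over 90% of their summed FPKM in 1 library.

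**Figure D3:**
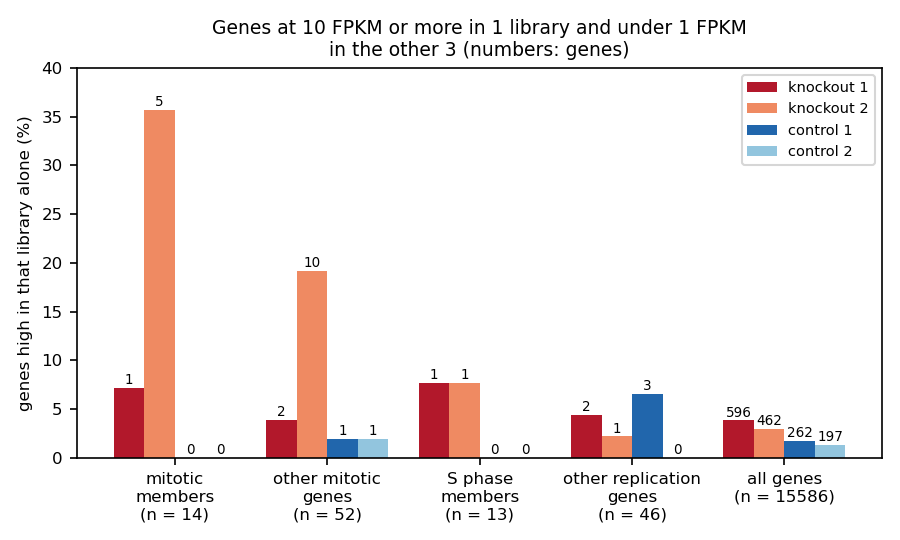
Share of genes (percent) that read at least 10 FPKM in the named library and under 1 FPKM in the other 3, for mitotic and S phase members, further mitotic and replication genes, and all genes; numbers above the bars are genes. Knockout 2 stands out among mitotic members (35.7%) and further mitotic genes (19.2%), against 2.96% of all genes.

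Markers of other cell types also differed in knockout 2, and their part in the mitotic values was not tested. Of 9 perivascular macrophage markers in the table, 1 and 7 reached 1 FPKM in knockout 1 and 2, and 4 and 3 in control 1 and 2. The 9 summed to 190 and 840 FPKM in the knockouts and to 2190 and 1553 FPKM in the controls, of which Ms4a7 made 189 and 155 FPKM in the knockouts and 1614 and 1547 FPKM in the controls. Lyve1, Cbr2 and F13a1 were high in knockout 2 alone, at 61.8, 96.7 and 119 FPKM. These 3 of 9 (33.3%) were a share near that of the mitotic members (35.7%), beside 2.96% of all genes. Folr2 was high in control 1 alone, at 111.4 FPKM. Mrc1 read 0.05 and 97.2 FPKM in the knockouts and 97.1 and 5.32 FPKM in the controls. Pf4 read 0.51 and 303 FPKM in the knockouts and 367 and 1.04 FPKM in the controls. Ly6c1, an endothelial marker, read 0 and 91.7 FPKM in the knockouts and 0.15 and 0.10 FPKM in the controls; the 5 endothelial markers summed to 15.9 and 100.1 FPKM in the knockouts and to 0.19 and 0.60 FPKM in the controls. The 10 monocyte markers summed to 58.8 and 11.4 FPKM in the knockouts and to 1111 and 1530 FPKM in the controls. The 15 rod photoreceptor markers summed to 6442 and 9440 FPKM in the knockouts and to 2278 and 3346 FPKM in the controls. In bulk RNA of sorted cells, more dividing cells and more transcript per cell cannot be told apart.

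Among the S phase members, the replicative helicase was read patchily and mostly in the knockouts. The 6 MCM subunits form 1 ring and are needed together. Mcm3 read 4.36 and 26.6 FPKM in the knockouts and 0.28 and 0.05 FPKM in the controls. Mcm4 read 15.3 and 1.09 FPKM in the knockouts and 0.03 and 0.04 FPKM in the controls. In both of these the knockouts lay above both controls. Mcm6 reached 20.5 FPKM in knockout 1 and 0.02 FPKM in knockout 2, against 0 and 0.07 FPKM in the controls. Mcm7 was at 0 in knockout 1 and 7.92 FPKM in knockout 2, against 0.03 and 0.08 FPKM in the controls. Mcm2 and Mcm5 read 0.04 FPKM or less in every library. No library held all 6 subunits at 1 FPKM or more, and neither control held any.

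The S phase members that reached 1 FPKM in a control were Pcna, Tyms and Rrm2, the clamp and 2 genes of nucleotide supply. Pcna, the sliding clamp of DNA polymerase, which also serves in DNA repair (chromosome 2, 132249286 to 132253180), read 271.6 and 488.6 FPKM in the knockouts and 491.3 and 1.43 FPKM in the controls. The knockouts and control 1 held Pcna within 271.6 to 491.3 FPKM, and control 2 was far below them. Tyms, which makes thymidylate, read 11.7 and 53.4 FPKM in the knockouts and 15.7 and 0.59 FPKM in the controls, the same order of control 2 below the others. Rrm2, the regulated subunit of ribonucleotide reductase, read 0.09 and 6.65 FPKM in the knockouts and 1.87 and 0.13 FPKM in the controls. Its partner Rrm1 read 0.02 and 2.43 FPKM in the knockouts and 0.05 and 0.02 FPKM in the controls. Tk1, thymidine kinase of dividing cells, read 0.05 and 14.85 FPKM in the knockouts and 0 in both controls. Of these enzymes and Pcna, all but Pcna were highest in knockout 2. Named pseudogenes exist for Pcna and Tyms, so their values could hold reads of these copies. Ccne1, the G1 to S cyclin, was listed at 0 in all 4 libraries, and its kinase Cdk2 read 4.45 and 0.07 FPKM in the knockouts and 0 and 0.03 FPKM in the controls.

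The D-type cyclins, which couple growth signals to the cycle, were not read in the same libraries throughout. Ccnd1 read 11.05 and 3.62 FPKM in the knockouts and 43.5 and 0.13 FPKM in the controls. Ccnd2 read 2.36 and 0.03 FPKM in the knockouts and 16.9 and 0.01 FPKM in the controls. Both were highest in control 1, then knockout 1, and near 0 in control 2. Ccnd3 was at 23.2 FPKM in knockout 2 alone, with 0 in knockout 1 and 0 and 0.05 FPKM in the controls. A named pseudogene, Ccnd3-ps, exists for Ccnd3, so its values could hold reads of this copy. Cdk4 was at 22.6 FPKM in knockout 1 alone, with 0.05 FPKM in knockout 2 and 0.06 and 0 FPKM in the controls. Groups overlapped in all 4 genes. Cdk4 overlaps Tspan31, which read 165 and 142 FPKM in the knockouts and 0.45 and 59.8 FPKM in the controls.

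Stmn1, Hmgb2 and Tubb5 were read in all 4 libraries. Stmn1, which encodes the microtubule-destabilizing protein stathmin (chromosome 4, 134468320 to 134473843), read 283.5 and 728.6 FPKM in the knockouts, against 44.7 and 1.48 FPKM in the controls. Both knockouts lay above both controls by a wide margin, although the controls also differed from each other. Hmgb2, a chromatin protein abundant in cycling cells (chromosome 8, 57511843 to 57515999), read 84.0 and 105.9 FPKM in the knockouts, against 33.2 and 37.5 FPKM in the controls. Its group means were 95.0 ± 15.5 FPKM in knockouts and 35.4 ± 3.02 FPKM in controls (SD, n = 2 each), with no overlap between the groups. Tubb5, a tubulin of the cytoskeleton and spindle, read 358 and 1541 FPKM in the knockouts and 1050 and 1197 FPKM in the controls, so the controls lay between the knockouts. Stmn1 and Tubb5 are also expressed in neurons, and the bipolar cell marker Pcp2, at 647 and 572 FPKM in the knockouts and 3.28 and 95.7 FPKM in the controls, was also higher in both knockouts; its part in the Stmn1 values was not tested.

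The comparison of knockouts with controls asked whether transcript levels differed after TAK1 deletion. For genes averaging 1 FPKM or more over the libraries, log2(FPKM + 1) was compared with limma's moderated test, adjusted by Benjamini-Hochberg over all 7823 genes tested. On this scale changes of low genes are understated. No member passed at an adjusted p of 0.05, higher or lower, and no gene of the table did (0% called in each direction, although 475 were higher and 127 lower before adjustment, at p under 0.05). Of the 34 members, 24 passed the filter. At an unadjusted p under 0.05, 1 of the 24 was higher in knockouts, Stmn1, and 0 were lower, beside 6.07% of tested genes higher and 1.62% lower. Stmn1 stood at a log2 difference of 5.42 (SE 1.61), with an unadjusted limma p of 0.0152 and an adjusted p of 0.559. Hmgb2 stood at 1.39 (SE 1.04; limma adjusted p = 0.698). Ccnb2, Birc5 and Cdc20 stood at 3.91 (SE 2.77), 3.88 (SE 2.77) and 3.74 (SE 2.11), each with a limma adjusted p of 0.698. In each of them the 2 knockouts lay far apart. The standard errors are limma's moderated ones, which pool both groups, and do not measure that gap alone. Ccnd2 and Tubb5 stood below 0, at -1.19 (SE 2.01) and -0.59 (SE 0.717).

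Both knockouts lay above both controls in 11 of the 34 members and below in 0, beside 17.6% of all genes in the table above and 8.01% below (27.8% and 11.4% of tested genes). Of the 11, Mcm3, Mcm4, Cdc20, Stmn1 and Hmgb2 reached 1 FPKM in both knockouts. Tk1, Cdk2 and Ube2c did so in 1 knockout, and Mcm2, Ccnb1 and Bub1 in none. The median log2 difference was 1.50 over the 13 S phase members and 1.97 over the 14 mitotic members, beside 0.014 over all genes in the table and 0.94 over the genes tested. Without knockout 2 these medians were 0.070 and 0.000136, and without knockout 1 they were 1.73 each. The medians of both classes, S phase and mitotic, therefore rested on knockout 2. For groups of 2 and 2 libraries, p = 0.333 is the smallest that an exact permutation test can give (two-sided).

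**Figure D4:**
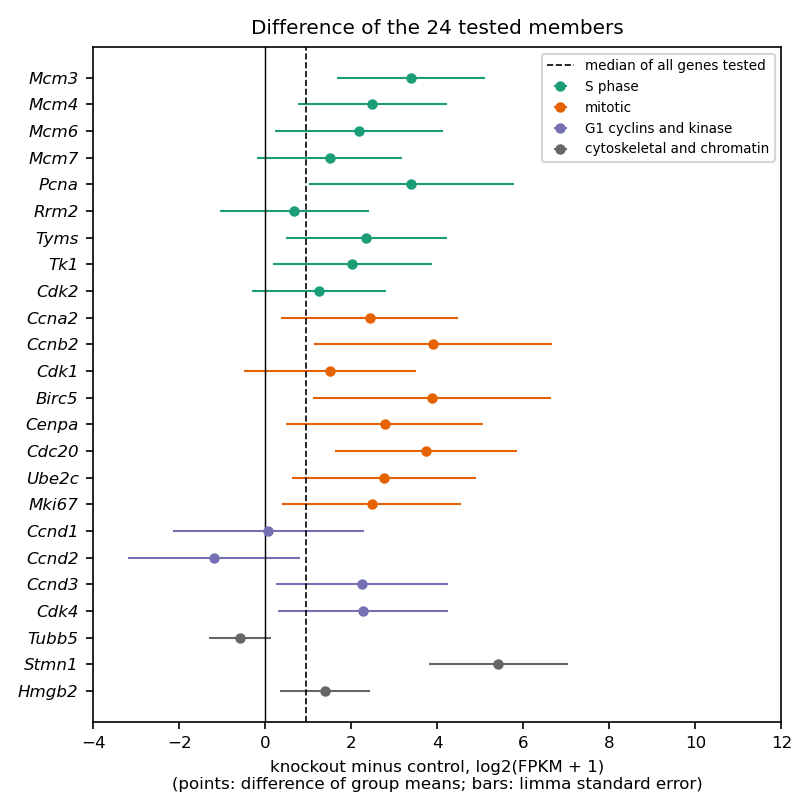
Log2 difference (knockout minus control, log2(FPKM + 1)) of the 24 members that passed the filter, with limma standard errors (2 libraries per group); the dashed line is the median of all tested genes, 0.94. Stmn1, at 5.42, lies farthest to the right, and the bars of Ccnb2 and Birc5 (SE 2.77) span most of their distance from 0.

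Genes that act around the members were read from lists of known function, and none of their genes passed the adjusted test. Of 46 further replication genes, 5 were higher in each knockout than in either control (10.9%, beside 17.6% of all genes in the table), and 8 were lower (17.4%, beside 8.01%). Rfc2, a subunit of the clamp loader, read 48.5 and 168 FPKM in the knockouts and 0.05 and 0.48 FPKM in the controls, and Rpa2, of the single-strand binding complex, read 32.4 and 37.2 FPKM in the knockouts and 0 and 0.08 FPKM in the controls. Rpa3, of the same complex as Rpa2, stood the other way, at 75.6 and 108 FPKM in the knockouts and 210.1 and 554 FPKM in the controls, as did Mcmbp, an MCM-binding protein gene, at 70.7 and 178 FPKM in the knockouts and 278 and 340 FPKM in the controls. Of 52 further mitotic genes, 7 lay above both controls (13.5%, under the 17.6% of all genes) and 0 below (8.01% of all genes). Smc4, a condensin subunit, read 14.6 and 73.6 FPKM in the knockouts and 0.17 and 0.25 FPKM in the controls. Spc25, a kinetochore gene, was the most abundant, at 437 and 666 FPKM in the knockouts and 213 and 2.10 FPKM in the controls. Pttg1, securin, read 203 and 46.7 FPKM in the knockouts and 68.9 and 391 FPKM in the controls, with no order by group, and Mad2l1, of the spindle checkpoint, read 102 FPKM in knockout 1 and 0.32 FPKM or less in the others.

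Of 5 CDK inhibitors, 2 lay above both controls and 1 below, and of 20 checkpoint and p53 genes 4 lay above (20%) and 2 below (10%), beside 17.6% and 8.01% of all genes. Cdkn1a, which encodes p21, a p53 target that arrests the cycle, read 37.99 and 38.3 FPKM in the knockouts and 4.55 and 0.22 FPKM in the controls. Cdkn2d, an inhibitor of CDK4 and CDK6, read 22.98 and 57.1 FPKM in the knockouts and 0.06 and 0.18 FPKM in the controls. Cdkn1b, which encodes p27, an inhibitor of resting cells, read 0.66 and 0.47 FPKM in the knockouts and 33.1 and 14.7 FPKM in the controls. In all 3 of these the groups did not overlap, and their limma adjusted p were 0.66 (Cdkn1a), 0.562 (Cdkn2d) and 0.657 (Cdkn1b). Trp53, which encodes p53, read 4.06 and 30.6 FPKM in the knockouts and was at 0 in both controls. The antiproliferative genes Btg1 and Btg2 went opposite ways: Btg1 read 75.9 and 78.2 FPKM in the knockouts and 197 and 359 FPKM in the controls, and Btg2 read 135.6 and 119.6 FPKM in the knockouts and 61.1 and 0.94 FPKM in the controls.

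Of 21 RB, E2F and DREAM genes, 3 were higher in each knockout than in either control (14.3%, beside 17.6% of all genes), and 1 was lower (4.76%, beside 8.01%). Tfdp1, the DNA-binding partner of E2F proteins, read 29.0 and 32.1 FPKM in the knockouts and 0.03 and 0.08 FPKM in the controls, and Lin52, a MuvB subunit, read 58.7 and 12.1 FPKM in the knockouts and 0.06 and 0 FPKM in the controls. E2f6 read 9.85 FPKM in knockout 2 and 0.03 FPKM or less in the others. Lin37, also of MuvB, read 0.16 and 51.6 FPKM in the knockouts and 0.08 and 61.5 FPKM in the controls, and Rbl1, which encodes p107, read 5.61 and 16.5 FPKM in the knockouts and 61.5 and 0.02 FPKM in the controls, neither with an order by group. Foxm1, the activator of late mitotic genes, read 0 and 2.19 FPKM in the knockouts and 0 and 0.01 FPKM in the controls. Of 9 further G1 and CDK-activating genes, 0 lay above both controls and 1 below (11.1%), beside the same 17.6% and 8.01% of all genes. Skp1 and Rbx1, subunits of SCF ubiquitin ligases, were read in every library. Skp1 stood at 331 and 249 FPKM in the knockouts and 245 and 302 FPKM in the controls, with no order by group. Rbx1, the 1 gene below, stood at 358 and 346 FPKM in the knockouts and 431 and 464 FPKM in the controls.

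Of 13 microglial growth signal genes, 2 were higher in each knockout than in either control (15.4%, beside 17.6% of all genes), and 3 were lower (23.1%, beside 8.01%). Csf1r, the receptor for the growth factors CSF1 and IL-34, read 180.3 and 119 FPKM in the knockouts and 62.4 and 101.6 FPKM in the controls, and did not pass (limma adjusted p = 0.698). Tgfbr1, a receptor of TGF-beta, read 154 and 111.5 FPKM in the knockouts and 5.78 and 33.9 FPKM in the controls. Runx1 and Csf2rb lay lower, Runx1 at 3.53 and 0.66 FPKM in the knockouts and 10.65 and 10.6 FPKM in the controls, and Csf2rb, a receptor subunit for GM-CSF, at 0.07 and 0.99 FPKM in the knockouts and 13.1 and 1.55 FPKM in the controls. Csf1r was higher in knockout 1 than in knockout 2.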

How the data were processed

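RNA-seq of 4 libraries of 200 sorted retinal microglia was analysed from 1 table of FPKM deposited by the authors, with 1 value per gene and library, rounded to 2 decimals. cDNA was made with SMART-SeqII and PCR, per the labels' protocols, and reads were placed on mm10 according to the submitters' processing notes. The sources used here name no aligner, quantifier or annotation. FPKM keep no depth. Between 206 and 425 genes per library pair lay between 0.1 and 1 FPKM in both, and 8.74% to 16.3% of their ratios lay near the commonest one, so no reads were recovered. Copies made by PCR were not marked by molecular identifiers.

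Columns were matched to samples by title. Genes averaging 1 FPKM or more were tested on log2(FPKM + 1) in R 4.3.3 with limma 3.58.1 (Benjamini-Hochberg, threshold 0.05, prior variance with a trend), a test first tried on simulated data. Alternatives covered pseudocount, filter, scaling, variance, a replicate block and each library left out. Coordinates and promoters were RefSeq's (GRCm38.p6; 15470 of 15586 identifiers matched). The members and lists were chosen with earlier results of these data known. All members are named; per list, the 3 genes with the smallest p and the 2 with the highest mean are named, and for cell type markers up to 2 with the highest mean. A few genes that this rule names are not reported here. Polr2a, Tbp, Foxm1, Lyve1, Cbr2, F13a1, Folr2, Mrc1, and the list genes high in knockout 2 alone were named after their values were seen. So were the genes that overlap members. Figures were drawn with matplotlib 3.10.9.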

Additional observations from a re-analysis of the deposited data

How the results depend on the processing

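The count of tested genes called by limma, 0 higher and 0 lower, held under every change of pseudocount, filter, scaling and variance, and so did 0 members called. With the replicate number as a block, 15 genes were called higher and 20 lower, and 1 member was called higher, Stmn1 (log2 difference 5.42, adjusted p = 0.0442). Same-numbered libraries did not deviate together (r = 0.017 across 7823 genes). Genes high in a single library are common here, so this cannot settle whether libraries were paired by number. Leaving out a library gave 0 to 1306 genes called higher, 0 to 5 lower, and 0 to 5 members called higher; in fits with a lone library in a group, its spread is taken from the other group. The members called were Mcm7 and Tk1 without knockout 1, and Mcm4, Mcm6, Cdk2, Ube2c and Cdk4 without knockout 2, each near 0 in both controls. The 11 members with both knockouts above both controls were 8 with median ratio scaling and 12 with libraries rescaled to 1 sum; with a library left out, which asks less of each member, the remaining knockouts lay above the remaining controls in 13 to 26 members and below in 0 to 5. The S phase median of 1.50 was 2.93 at a pseudocount of 0.1 FPKM, 0.67 at 5 FPKM, 2.87 for members at a mean of at least 5 FPKM and 0.66 after quantile normalization, and ranged from 0.070 to 1.73 with a library left out. The mitotic median of 1.97 ranged from 0.000136, without knockout 2, to 2.46 with a library left out. It was 3.08 at a pseudocount of 0.1 FPKM and 1.02 at 5 FPKM. For members at a mean of at least 5 FPKM it was 2.77, and after quantile normalization 0.97. Of the members that this filter kept, Mcm3, Mcm6 and all mitotic ones but Cdk1 were under 1 FPKM in both controls. Those passed only through a knockout, so the medians of both classes at this filter follow in part from the filter. Of the moves of the mitotic median, only that without knockout 2 exceeded the replicate spread of the class median (SD 1.39). The S phase median moved beyond its own spread (SD 0.827) at pseudocounts of 0.1 and 5 FPKM and for members at a mean of at least 5 FPKM. It also did so after quantile normalization and without knockout 2. The median of all tested genes was 0.94, against 0.18 after quantile normalization and 0.17 with median ratio scaling. Of the tested members, 9 values in all changed sign. Ccnd1, at 0.07, was -0.42 at a pseudocount of 5 FPKM, -0.44 with median ratio scaling, -1.49 after quantile normalization, and -2.58 to 2.72 with a library left out; Rrm2 was -0.54 after quantile normalization. With a library left out Tubb5 ranged from -1.65 to 0.46 (positive without knockout 1), Pcna from -0.43 (without control 2) to 7.23 and Cdk1 from -0.71 (without control 2) to 3.73. The 5 mitotic members high in knockout 2 alone numbered 5 or 6 under the other limits and scalings, which were chosen after the data were seen.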
